A study of Homo sapiens with 33 samples.

Results

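The collagen genes were examined across mesothelioma and mesothelial cell lines treated with the CDK4/6 inhibitor palbociclib. A gene was taken as a member when its name in the deposited matrix was COL, a number, A and a number, without antisense transcripts or pseudogenes. This gave 44 of the 58302 genes of the matrix. The RNA-seq series holds 33 libraries of 6 established cell lines. H2052, H2452, H28 and MSTO-211H came from malignant pleural mesothelioma (MPM) and are sensitive to palbociclib. The resistant lines were MPP89, from MPM carrying an RB1 mutation, and MeT-5A, made of SV40-immortalized mesothelial cells. Cells received 1 µM palbociclib or 0.1% DMSO for 9 or 10 days. There were 2 experiments with H2052, 3 with each of H2452, H28 and MSTO-211H, 2 with MPP89 and 1 with MeT-5A, each with 1 DMSO and 1 palbociclib library. In 1 experiment of 10 days per sensitive line, palbociclib was then removed for 48 h (drug washout). MeT-5A also had 1 untreated library. Each line is a single culture model, without the stroma of a tumour. Levels are given in CP20M, which are reads counted per gene and scaled by the authors to 20000000 reads per library.

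Collagens are secreted proteins made of 3 alpha chains wound into a triple helix. Fibrillar collagens (types I, II, III, V, XI, XXIV and XXVII) form the fibres of connective tissue, and FACITs are associated with those fibres. Type IV collagen forms the network of basement membranes, type VI forms beaded filaments around cells, type VIII forms open networks, and type VII forms the fibrils that anchor basement membranes to the stroma. Collagens of the multiplexin group (types XV and XVIII) lie in and next to basement membranes, and a transmembrane group (types XIII, XVII, XXIII and XXV) is held at the cell surface. Mesothelial cells rest on a basement membrane and themselves produce collagens.

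Of the 44 collagen genes, 31 reached 100 CP20M in at least 1 library and were tested. The other 13 stayed below this level in every library. They were COL2A1, COL11A1 and COL24A1 among the fibrillar collagens, COL6A5 and COL6A6 of type VI, COL10A1 of the network group, COL9A1, COL19A1, COL20A1 and COL21A1 among the FACITs, COL23A1 of the transmembrane group, and COL26A1 and COL28A1. The highest of these was COL11A1, which reached 83 CP20M, and the lowest was COL9A1, which reached 2. Just inside the threshold were COL17A1, with a highest value of 130, and COL15A1, with 167.

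The cell type labels were compared with marker genes. KRT8, a keratin of simple epithelia and mesothelium, had control means from 5770 CP20M in H28 to 46358 in MPP89. The mesothelial transcription factor gene WT1 was between 197 and 549 in the 5 MPM lines, but at 1 in MeT-5A. MSLN, coding for mesothelin, was at 4.33 in H28 against 4256 in H2052. The summed level of 5 endothelial markers was at most 336 CP20M in any DMSO or palbociclib library. The 5 leukocyte markers summed to between 127 and 1595 with DMSO and between 159 and 2371 with palbociclib. CD68, a lysosomal protein gene, had the highest control mean of these in each line and reached 1232 in a control library, while the pan-leukocyte PTPRC was at most 42 and CD3E was at 0 in all controls. The 6 genes that mark fibroblasts (THY1, PDGFRA, PDGFRB, FAP, DCN and LUM) summed to between 1030 and 9626 in the DMSO libraries. Of these, THY1 had the highest control mean in H2052 (8045) and H28 (2558), PDGFRB in H2452 (1982) and FAP in MSTO-211H (664). DCN and LUM averaged at most 66 in these 4 lines. From the steps between low values, 23 libraries held between 12770000 and 19790000 counted reads, and no depth could be estimated for the other 10.

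Several collagen genes are neighbours in the genome. In the GENCODE 44 annotation of GRCh38, COL6A1 lies on chromosome 21 from 45981770 to 46005050, and COL6A2 follows on the same strand from 46098112 to 46132848, with 93061 bases between them. COL4A3 and COL4A4 on chromosome 2 are head to head with starts 171 bases apart, and COL4A5 and COL4A6 on chromosome X with starts 341 bases apart. COL4A1 and COL4A2 on chromosome 13 are also head to head, and their annotated 5′ ends overlap. COL3A1 and COL5A2 lie tail to tail on chromosome 2 with a gap of 19151 bases. Sequences before the start site are shown for 4 members with an adjusted p under 0.05 over the sensitive lines, and for the 100 bases just before the start of COL4A1, which lie within the annotated bounds of COL4A2 (both genes were higher in H2052). Each is written 5′ to 3′ on the strand of the gene (on the plus strand, that of COL4A2, for the last), taken from RefSeq (GRCh38.p14). The first 4 are the 150 bases just before the start. Capitals mark GGGCGG, the letters of an SP1 site, and CCAAT, on either strand.
COL6A2, plus strand, chr21:46097962-46098111: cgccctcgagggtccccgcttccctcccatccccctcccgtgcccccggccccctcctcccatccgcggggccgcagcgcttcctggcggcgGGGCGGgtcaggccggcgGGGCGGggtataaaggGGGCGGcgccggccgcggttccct
COL5A3, minus strand, chr19:10010505-10010654: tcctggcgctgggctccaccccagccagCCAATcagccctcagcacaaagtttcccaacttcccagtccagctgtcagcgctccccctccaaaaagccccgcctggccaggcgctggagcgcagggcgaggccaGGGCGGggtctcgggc
COL7A1, minus strand, chr3:48595330-48595479: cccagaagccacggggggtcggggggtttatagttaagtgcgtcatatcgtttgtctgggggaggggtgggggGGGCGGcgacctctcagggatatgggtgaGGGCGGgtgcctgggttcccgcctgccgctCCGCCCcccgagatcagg
COL8A2, minus strand, chr1:36125223-36125372: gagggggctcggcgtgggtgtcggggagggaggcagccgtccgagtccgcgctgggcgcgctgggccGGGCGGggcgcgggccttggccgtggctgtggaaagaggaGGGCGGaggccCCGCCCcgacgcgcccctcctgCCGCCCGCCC
COL4A1 and COL4A2, chr13:110307158-110307257: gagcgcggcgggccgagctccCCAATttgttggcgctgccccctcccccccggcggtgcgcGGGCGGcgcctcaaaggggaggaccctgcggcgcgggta

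These stretches are rich in G and C, with 80.7% in COL6A2, 69.3% in COL5A3, 68% in COL7A1 and 82% in COL8A2. GGGCGG occurred 3 times in the stretch of COL6A2 and of COL7A1, 5 times in that of COL8A2 (overlaps counted) and 1 time in that of COL5A3. The RefSeq table held 44 windows of 300 bases (250 before and 50 after a start) for 32 collagen genes. GGGCGG was found on either strand in 54.5% of these windows and in 45% of all 35116 windows of the table. CCAAT was found in 31.8% against 34.6%, TATAAA in 18.2% against 11.5%, CAGACA in 11.4% against 16.9%, TGANTCA in 2.27% against 7.71% and TTTGAA in 18.2% against 15.2%. TTTGGCGC and GGACTTTCC were in 0 windows of collagen genes, against 0.652% and 0.37% of all windows. No test was made, and a match describes letters only.

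In control cells, each line had its own set of collagen transcripts. Compared per kilobase of exon, COL1A1 (8846 ± 1441 CP20M per kb, SD, n = 2) and COL3A1 (7390 ± 200), the chains of the main fibrillar collagens, led in MPP89. The multiplexin COL18A1, from which endostatin is cut, led in H28 at 6449 ± 487 per kb (n = 3), followed by COL4A1 at 2865 ± 792, COL7A1 at 2803 ± 1639 and COL4A2 at 2523 ± 683. COL12A1, a FACIT, led in H2452 at 2035 ± 636 (n = 3). The type VI genes led in H2052 (COL6A2 at 2531 ± 180 per kb, n = 2) and in MSTO-211H (COL6A1 at 1477 ± 220, n = 3). In MeT-5A the fibrillar COL5A2 (2404 ± 424, n = 2) and COL5A1 (2284 ± 546) led, and their SD includes 1 untreated and 1 DMSO library. All 31 tested members differed among the 6 lines in the F test of limma (adjusted p under 0.05), as did 96.3% of all genes tested, so that this is not a property of collagens.

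**Figure D1:**
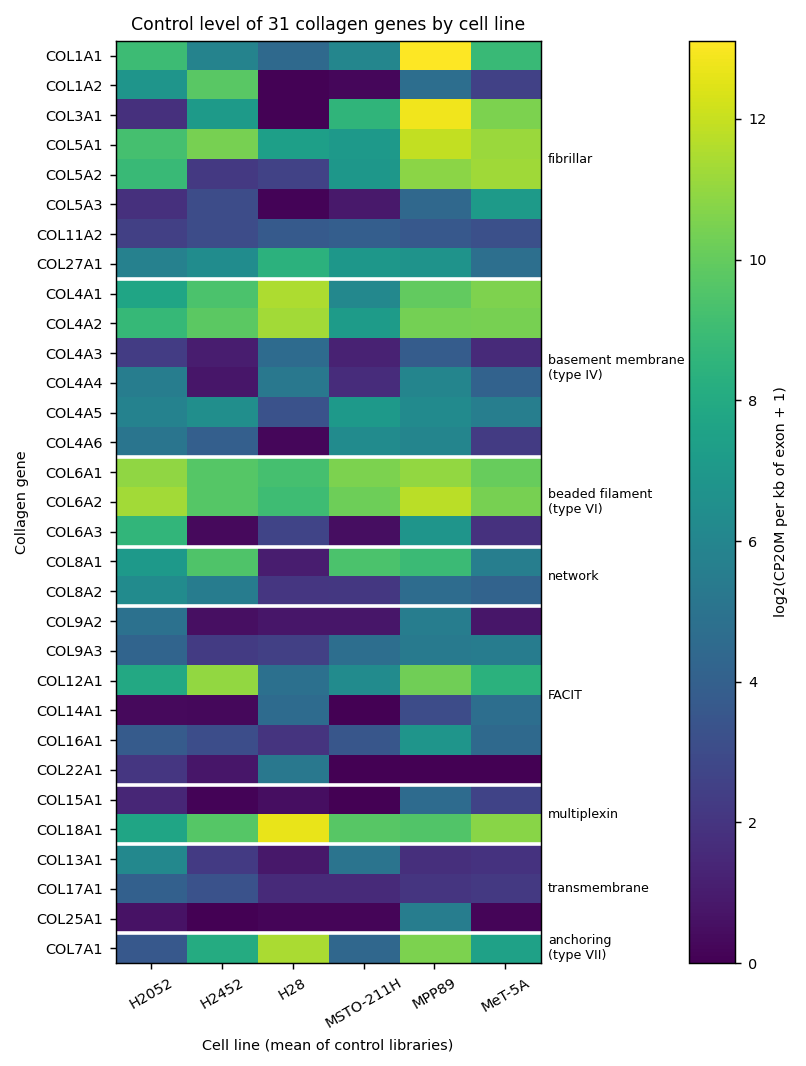
Heat map of the mean control level of the 31 tested collagen genes (rows, grouped by class) in the 6 cell lines (columns), as log2 of CP20M per kb of exon plus 1. COL1A1, COL3A1 and COL5A1 are brightest in MPP89, COL18A1, COL4A1 and COL7A1 in H28, and COL12A1 in H2452. COL6A1 and COL6A2 are present in all lines.

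The widest differences between lines were those of COL3A1, COL1A2 and COL6A3. COL3A1 was at 50901 and 48987 CP20M in the DMSO libraries of MPP89 and at 1, 0 and 0 in those of H28. COL1A2 was at 4635, 20006 and 3000 in H2452 but at 0, 0 and 2 in H28 and at 1, 0 and 4 in MSTO-211H. COL1A1, whose chain joins that of COL1A2 in type I collagen, was at 88853 and 70498 in MPP89, where COL1A2 was at only 221 and 329. H2452 showed the opposite balance, with COL1A1 at 422, 814 and 310. COL5A2 was at 30, 26 and 22 in H2452, whereas COL5A1, its partner in type V collagen, was at 12973, 24067 and 8818 there. COL6A3, the third chain of type VI collagen, was at 7258 and 9681 in H2052, and at 4, 11 and 2 in H2452, although COL6A1 and COL6A2 were at 2042 CP20M or more in every control library. COL6A1 was the tested gene with the second smallest spread, 3.4-fold between MPP89 and H28 on the log2(CP20M + 10) scale. The smallest was that of COL11A2 at 2.57-fold.

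Some control libraries stood apart from others of their line. The second H2452 experiment had the highest COL1A2, COL3A1, COL5A1 and COL12A1 of the 3, under DMSO as under palbociclib. COL3A1, for example, was at 2662 against 132 and 92 with DMSO, and at 806 against 81 and 39 with palbociclib. COL7A1 was at 52276 in the third H28 DMSO library against 21069 and 20287 in the others, and COL6A3 at 326 against 16 and 4. COL1A1 was at 1212 in the first MSTO-211H DMSO library against 295 and 214. In MeT-5A, COL1A1 was at 2128 untreated and 6318 with DMSO, COL3A1 at 6005 and 13663, and COL7A1 at 3148 and 908. The responses of these genes were therefore read within experiments.

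The 44 collagen genes together took 1.57 ± 0.131% (SD, n = 2) of the CP20M of MPP89 control libraries, 0.958 ± 0.206% (n = 3) in H28, 0.731 ± 0.106% (n = 2) in MeT-5A, 0.598 ± 0.134% (n = 3) in H2452, 0.36 ± 0.0144% (n = 2) in H2052 and 0.22 ± 0.0351% (n = 3) in MSTO-211H. With palbociclib this share was 0.638% and 0.622% in the H2052 libraries, against 0.35% and 0.37% with DMSO. In MSTO-211H it was 0.427%, 0.371% and 0.481%, against 0.26%, 0.193% and 0.208%. The DMSO and palbociclib libraries did not overlap in these lines. In H28, H2452 and MPP89 they overlapped. The ratio of palbociclib to DMSO within pairs lay between 0.85 and 1.012 in H28 and between 0.872 and 1.014 in H2452. In MPP89 it was 0.893 and 1.001. The share was higher with palbociclib in 8 of the 11 sensitive pairs. MeT-5A was at 0.806% and 0.812%. These summed shares were not tested. The summed fibroblast markers were also higher in H2052 (16832 to 17752 CP20M with palbociclib, 8994 to 9626 with DMSO) and MSTO-211H (3372 to 4684 against 1030 to 2588), and lower in H28 (1436 to 1917 against 2384 to 2829). The 11 mesothelial markers summed to 104728 and 111499 with palbociclib against 73222 and 93000 with DMSO in H2052, and to between 111291 and 140633 against 41997 and 56755 in MSTO-211H. They were higher in H28 as well (14461 to 20821 against 11303 to 14239). In H2052 controls, KRT8, KRT18 and KRT19 averaged 36820.5, 16839.5 and 23575.5 CP20M, and MSLN, the next marker, 4256. In MSTO-211H controls, KRT8 and KRT18 averaged 29943 and 17131, and MSLN 650. In H28 controls, KRT8 averaged 5770 and LRRN4, the highest marker that is not a keratin, 279. The mesothelial sums are thus mostly those of keratin genes. In H2452 both lists were lower in each pair. The mesothelial sum was 42537, 52427 and 28547 with palbociclib against 52170, 74831 and 44447 with DMSO, and the fibroblast sum 2065, 3819 and 1610 against 2544, 4140 and 2127. The leukocyte sum was higher in each pair of H2452 (2054, 2371 and 1840 against 1277, 1595 and 1278) and of H28 (414, 159 and 323 against 143, 127 and 196), and lower in both pairs of H2052 (543 and 363 against 746 and 592). The endothelial sum, always low, was higher in each pair of MSTO-211H (175, 127 and 336 against 128, 61 and 136) and of H28 (43, 32 and 24 against 14, 13 and 8). It was lower in each pair of H2052 (91 and 81 against 109 and 142) and of H2452 (45, 76 and 25 against 62, 158 and 33). The part of these lists in the collagen values was not tested. In such bulk libraries, a change in the cells that express a gene and a change in its RNA per cell cannot be told apart.

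**Figure D2:**
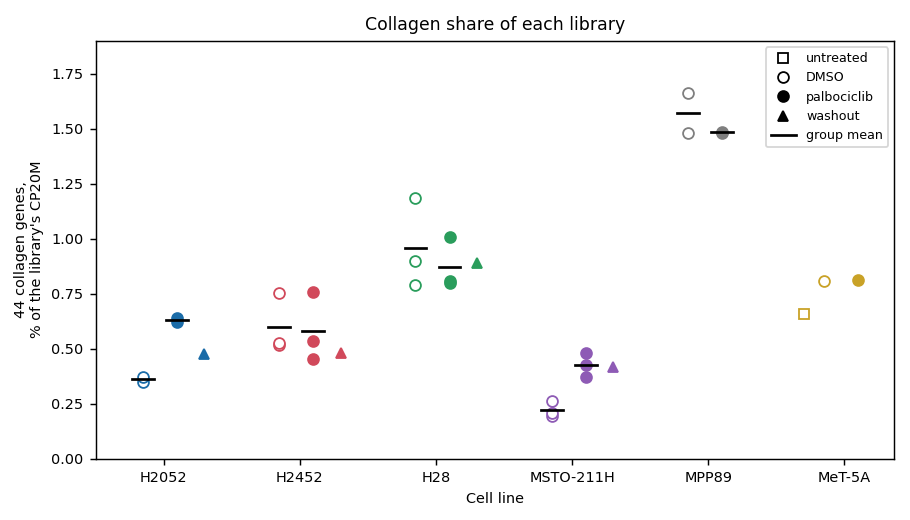
Percent of each library's CP20M taken by the 44 collagen genes (vertical axis) in each cell line (horizontal axis), with 1 symbol per library and bars for group means. Palbociclib libraries lie above the DMSO libraries in H2052 and MSTO-211H, and among them in H28. In H2452 they overlap the DMSO libraries and span a wider range.

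The first comparison asked which collagen genes changed after prolonged palbociclib in the sensitive lines, over 11 pairs of libraries. Of 31 members tested, 3 rose and 4 fell, by a fold change above 1.5 and an adjusted p under 0.05 in limma with the experiment as a block. Over all genes, 5.58% rose and 9.37% fell, against 9.68% and 12.9% of the tested collagens. The median log2FC of the members was 0.02 and that of all genes −0.11. The values scale with library totals, and under median-of-ratios scaling the median of all genes moved to 0.06 and under upper-quartile scaling to 0.04. Under both, 6 members rose and 2 fell. Of all genes, 9.88% then rose and 5.17% fell under median-of-ratios scaling, and 9.33% and 5.5% under upper-quartile scaling. The median of the members moved to 0.19 and 0.17. By class, 1 of 8 tested fibrillar genes rose and 1 fell, 1 of 6 of type IV fell, 1 of 3 of type VI rose, 1 of 2 of the network group fell, 1 of 6 FACITs rose, and the type VII gene fell. In limma, 0 of 2 multiplexin and 0 of 3 transmembrane genes passed, with COL18A1 at an unadjusted p of 0.0309.

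Of the 3 type VI genes tested, COL6A1 rose. COL6A1 (ENSG00000142156), coding for the alpha 1 chain, was at 10651 and 10903 CP20M with DMSO in H2052 and at 26364 and 25149 with palbociclib. In H2452 it was at 4437, 4780 and 4314 with DMSO and at 6635, 7228 and 8272 with palbociclib. In MSTO-211H it was at 9584, 7442 and 7505 with DMSO, and at 16054, 14014 and 16374 with palbociclib. The groups did not overlap in these 3 lines. In H28 they did, with 3033, 2556 and 4475 against 4909, 2416 and 7358, and the second experiment was the only pair of 11 in which COL6A1 was lower. The log2FC over the 11 pairs was 0.79 ± 0.11 (SE), with an adjusted p of 5.95e-05 in limma. COL6A2, the neighbour of COL6A1 whose promoter is shown above, had a log2FC of 0.58 ± 0.13 (adjusted p = 0.00206 in limma), higher in 10 of 11 pairs and just below the fold threshold. It was at 12821 and 14179 with DMSO and at 30730 and 27088 with palbociclib in H2052. COL6A3 did not pass the test (log2FC −0.22 ± 0.32). It was at 7258 and 9681 with DMSO and at 5098 and 5183 with palbociclib in H2052, while it was at 13, 3 and 9 and at 26, 25 and 37 in MSTO-211H.

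COL7A1 (ENSG00000114270), the gene of the anchoring fibrils, on the minus strand of chromosome 3 from 48564073 to 48595329, fell. It was at 3312, 2974 and 2635 CP20M with DMSO in H2452 and at 1097, 1151 and 989 with palbociclib. In H28, where it is abundant, it was at 21069, 20287 and 52276 with DMSO and at 8688, 14227 and 21355 with palbociclib. In H2052 it was at 117 and 132 with DMSO, and at 37 and 21 with palbociclib. The groups were separate in H2052 and H2452, but in H28 the highest palbociclib value passed the lower DMSO values. In MSTO-211H it was at 340, 136 and 183 with DMSO and at 139, 176 and 112 with palbociclib, and the second experiment was the only one of 11 with a higher value. The log2FC was −1.15 ± 0.18 (SE), with an adjusted p of 1.71e-04 in limma. Without the third H28 experiment, whose DMSO library stood apart, it was −1.13.

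**Figure D3:**
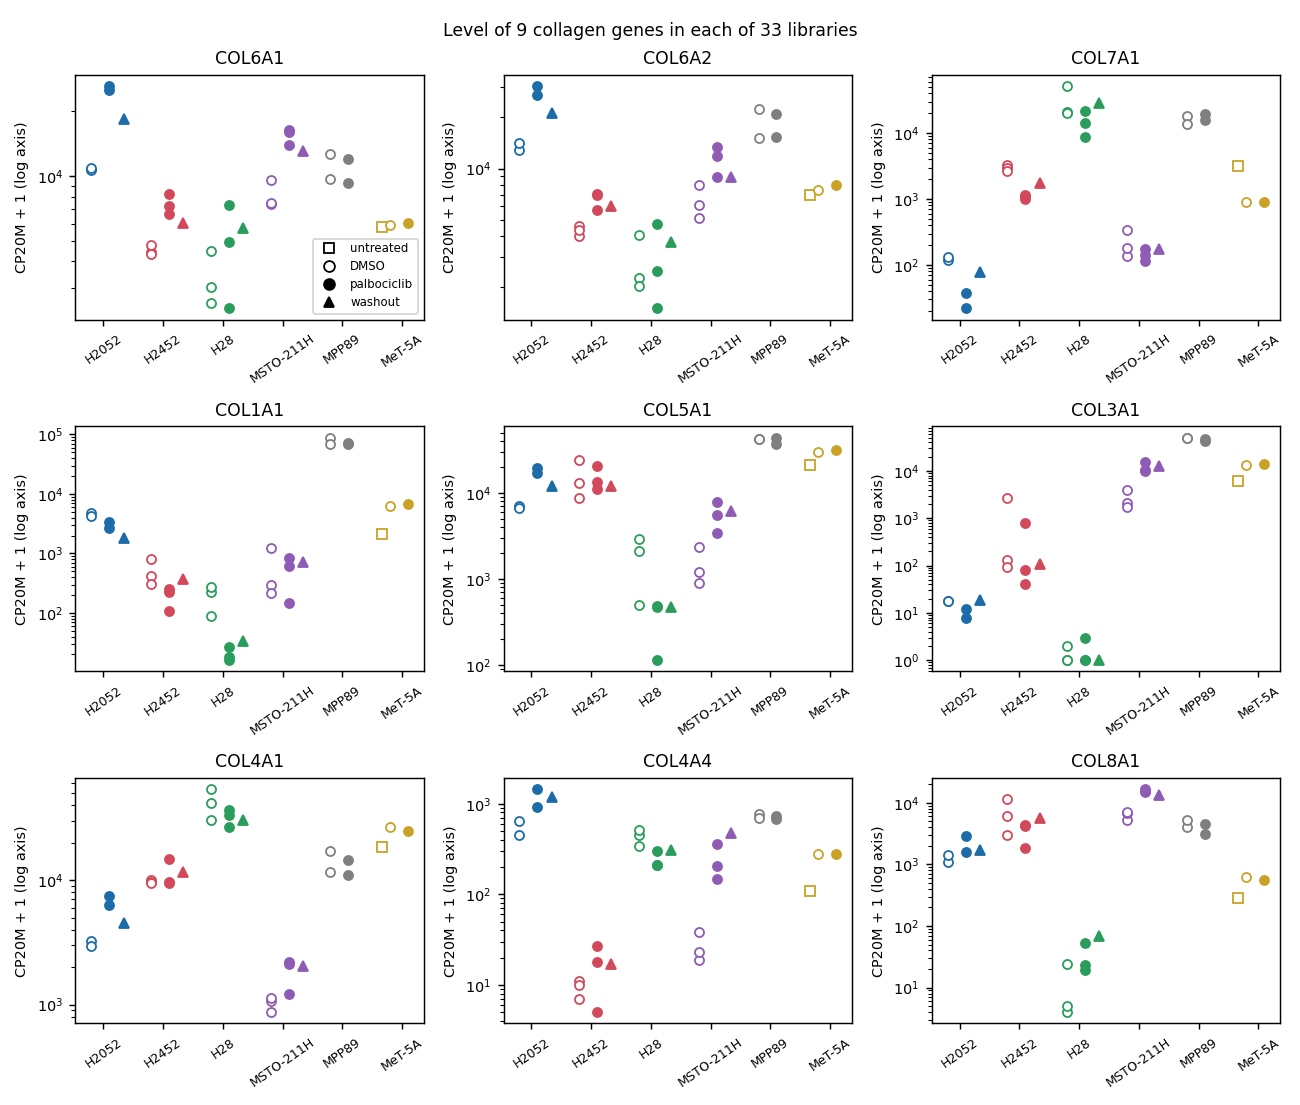
Level of 9 collagen genes in each of the 33 libraries, as CP20M plus 1 on a log axis, by cell line, with open circles for DMSO, filled circles for palbociclib, triangles for washout and a square for the untreated library. COL6A1 is higher and COL7A1 lower with palbociclib in most pairs of the 4 sensitive lines, while COL5A1 and COL4A4 are higher in H2052 and MSTO-211H but lower in H28.

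Among fibrillar collagens, COL1A1 fell and COL5A3 rose. COL1A1 was at 220, 88 and 273 CP20M with DMSO in H28 and at 17, 26 and 15 with palbociclib. In H2452 it was at 422, 814 and 310 with DMSO and at 106, 228 and 255 with palbociclib. In H2052 it was at 4811 and 4229 with DMSO and at 3402 and 2651 with palbociclib. Each of these sets was separate. MSTO-211H did not follow, with 1212, 295 and 214 against 146, 822 and 610, so that 2 of its 3 pairs went up. The log2FC over 11 pairs was −1.20 ± 0.44 (adjusted p = 0.0365 in limma). This call was lost when 1 of 6 pairs was left out (the first or second of H2452, any of H28, or the first of MSTO-211H, with adjusted p from 0.0595 to 0.081). It was also lost under both other scalings (adjusted p 0.0741 and 0.071). COL5A3, the alpha 3 chain of type V collagen, was at 6, 2 and 9 with DMSO and at 50, 37 and 63 with palbociclib in MSTO-211H. In H2452 it was at 32, 48 and 66 with DMSO and at 135, 58 and 128 with palbociclib. Its log2FC was 0.89 ± 0.23 (adjusted p = 0.00595 in limma). It was higher in each of the 8 pairs of H2052, H2452 and MSTO-211H, and at most 2 CP20M in the pairs of H28. These low values make the fold change depend on the added constant of 10 CP20M, and the call was lost with 50 CP20M added. Over all alternatives its log2FC ranged from 0.44 to 1.41.

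The other calls were of genes at low or moderate level. COL8A2, the alpha 2 chain of type VIII collagen, was at 295 and 436 CP20M with DMSO in H2052 and at 204 and 152 with palbociclib, and in H2452 at 196, 165 and 261 against 157, 72 and 96. Its groups did not overlap in these lines, and it was lower in 10 of 11 pairs (log2FC −0.67 ± 0.15, adjusted p = 0.00297 in limma). In H28 and MSTO-211H it was at most 22. Under median-of-ratios and upper-quartile scaling its log2FC of −0.52 and −0.54 was below the fold threshold. COL4A6, a basement membrane chain, was at 132, 185 and 97 with DMSO and at 13, 87 and 31 with palbociclib in H2452, and at 255 and 358 against 129 and 183 in H2052. In MSTO-211H, where it was highest, it was at 821, 589 and 758 against 747, 404 and 756. Its log2FC was −0.73 ± 0.21 (adjusted p = 0.0116 in limma). Without the first H2452 pair it was −0.54, below the fold threshold. The FACIT COL22A1 was at 193, 540 and 154 with DMSO in H28 and at 469, 356 and 407 with palbociclib. In H2452 it was at 9, 5 and 4 against 130, 8 and 66, and in H2052 at 26 and 25 against 47 and 56. MSTO-211H had at most 4 CP20M. Its log2FC was 0.88 ± 0.28 (adjusted p = 0.0192 in limma). With 50 CP20M added in place of 10 it was 0.50, below the fold threshold, and the values of H28 pair 2 went the other way.

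The other members were not called over the 11 pairs. COL4A4 had the largest log2FC of type IV at 0.82 ± 0.39 (adjusted p = 0.0971 in limma), and COL18A1 that of the multiplexins at 0.29 ± 0.12 (adjusted p = 0.0611). COL18A1 was at 54666, 58665 and 50428 CP20M with DMSO in H28 and at 75202, 64937 and 72406 with palbociclib, without overlap. In H2452 it was at 7864, 5975 and 6953 against 10831, 6885 and 12056, and in H2052 at 1570 and 1911 against 1491 and 1263. In MSTO-211H it was at 8872, 5671 and 6845 against 7782, 9808 and 11034. Of its exon bases, 1563 are shared with SLC19A1 on the other strand. COL13A1, of the transmembrane group, had a log2FC of −0.28 ± 0.21 (adjusted p = 0.279). It was at 956 and 625 with DMSO and at 555 and 572 with palbociclib in H2052, at 51, 24 and 51 against 15, 23 and 21 in H2452, at 8, 2 and 17 against 2, 5 and 10 in H28, and at 153, 129 and 824 against 361, 202 and 417 in MSTO-211H. COL5A2 (0.58 ± 0.20, adjusted p = 0.029) and COL9A3 (−0.53 ± 0.15, adjusted p = 0.0109) had an adjusted p under 0.05 in limma with a smaller fold change. COL5A2 lay just below the threshold, like COL6A2.

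COL27A1, a fibrillar gene, had control means from 376.5 CP20M in MeT-5A to 4785 in H28, and a log2FC of −0.11 ± 0.10 over the 11 pairs, which was 0.09 and 0.07 under the other scalings. COL12A1 was present in all lines, from 516 in H28 to 38387 in H2452, with a log2FC of 0.12 ± 0.10. COL4A5, a type IV chain found in the basement membrane of the kidney glomerulus, was at 105 in H28 and up to 1626 in MSTO-211H, with 0.16 ± 0.10. COL4A3, its partner there, had its highest control mean in H28, at 284, and a log2FC of 0.24 ± 0.14. The adjusted p of these 4 genes in limma lay between 0.17 and 0.381.

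Other members were high in few lines. COL16A1, a FACIT, averaged 1056.5 CP20M in MPP89 and at most 194.5 elsewhere. COL25A1, of the transmembrane group, was at 534 and 268 in the DMSO libraries of MPP89 and at 5 or less in the control libraries of the other lines. COL15A1, a multiplexin like COL18A1, was at 167 and 139 in MPP89, and its mean was at most 34.5 elsewhere. The cartilage FACITs COL9A2 and COL9A3 both had a mean of 194.5 in MPP89, and COL9A3 reached 217 in MeT-5A. COL17A1, a hemidesmosome collagen, averaged 105.5 in H2052 and at most 63 in the other lines, and COL11A2 averaged between 33.5 in H2052 and 104.7 in MSTO-211H. Apart from COL9A3, these genes had an adjusted p between 0.188 and 0.953 in limma over the 11 pairs.

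**Figure D4:**
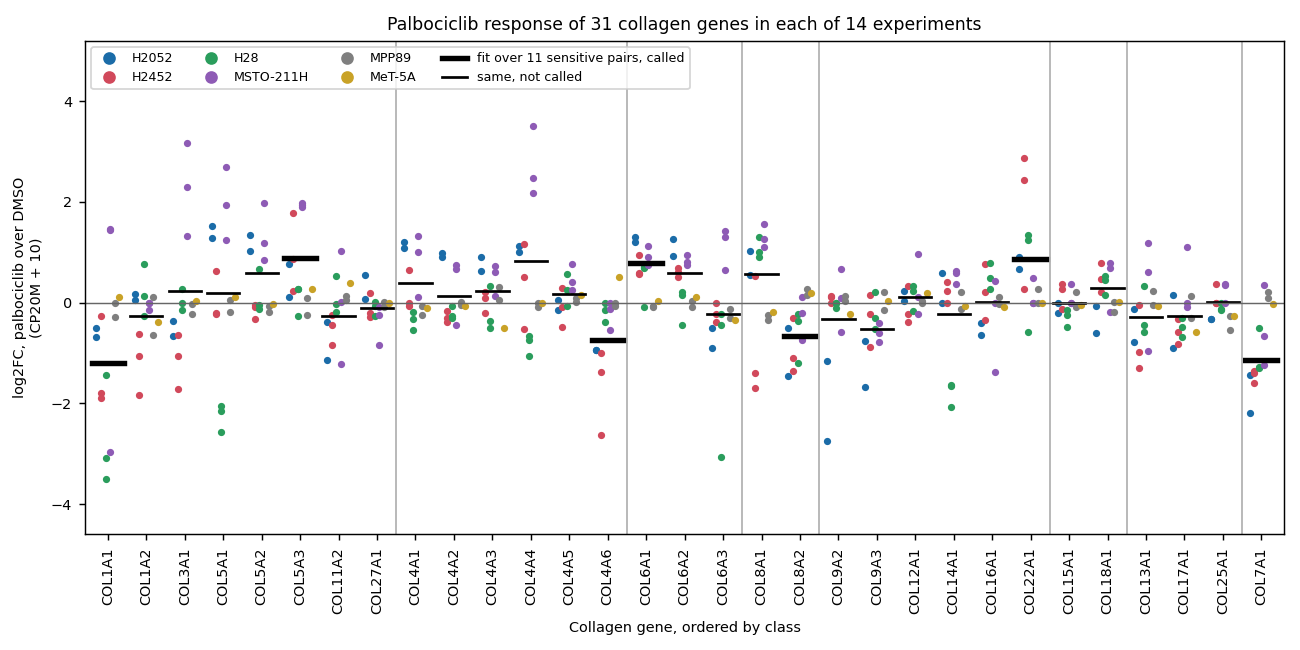
log2FC of palbociclib over DMSO on the log2(CP20M + 10) scale (vertical axis) for the 31 tested collagen genes (horizontal axis, by class) in each of 14 experiments, coloured by line, with black bars for the fit over the 11 sensitive pairs. The points of COL6A1 and COL7A1 lie on 1 side in 10 of 11 sensitive pairs, those of COL5A1, COL3A1 and COL4A4 lie on both sides by line, and those of MPP89 and MeT-5A lie between −0.64 and 0.50.

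The second comparison asked whether the 4 sensitive lines responded alike. The response of 14 of 31 members differed among them in the F test of limma (adjusted p under 0.05), which is 45.2% of the members against 37.1% of all genes. They were the fibrillar COL1A2, COL3A1, COL5A1, COL5A2 and COL5A3, the type IV genes COL4A1, COL4A2, COL4A4 and COL4A6, the type VI genes COL6A2 and COL6A3, COL8A1, and the FACITs COL9A2 and COL14A1. Several were almost absent from a line, where the added 10 CP20M keeps the log2FC small. In H28 controls, COL3A1 was at most 1, COL1A2 and COL5A3 at most 2 and COL4A6 at most 3 CP20M. COL1A2 was at most 4 in MSTO-211H controls, and COL6A3 at most 11 in those of H2452. There, a different response cannot be told apart from low expression. COL5A1, which helps to set the diameter of collagen fibrils, differed most (adjusted p = 9.68e-05). In H2052 it was at 7005 and 6719 CP20M with DMSO and at 17089 and 19332 with palbociclib. In MSTO-211H it was at 2369, 896 and 1193 against 5590, 3449 and 7763. In H28 it was at 2944, 500 and 2121 against 491, 113 and 469. It thus rose in the first lines and fell in H28 (log2FC 1.40 ± 0.12, 1.95 ± 0.31 and −2.26 ± 0.13). In H2452 it was at 12973, 24067 and 8818 against 11270, 20543 and 13568, and did not pass. For COL6A1, COL7A1 and COL1A1, the adjusted p of this test was 0.0605, 0.0698 and 0.178.

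In H2052, 7 members rose and 3 fell (22.6% and 9.68%), against 4.67% and 13% of all genes. The increases were of the type VI genes COL6A1 (log2FC 1.26 ± 0.12) and COL6A2 (1.10 ± 0.15), the fibrillar COL5A1 and COL5A2 (1.19 ± 0.12), and the type IV genes COL4A1 (1.14 ± 0.08), COL4A2 (0.95 ± 0.10) and COL4A4 (1.07 ± 0.09). COL4A1 was at 3229 and 2965 CP20M with DMSO and at 7432 and 6281 with palbociclib, and COL4A2, which starts next to it, at 9255 and 7760 against 18283 and 14607. COL7A1 (−1.81 ± 0.26), COL4A6 (−0.93 ± 0.14) and COL1A1 (−0.59 ± 0.09) fell. The adjusted p of these 10 genes lay between 0.0359 and 0.0425 in limma, with only 2 pairs. With moderation of the variance without trend, 0 of them passed, and 0 of all genes did. With median-of-ratios scaling 10 members rose and 0 fell, against 9.11% and 3.76% of all genes.

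In MSTO-211H, 9 members rose and 0 fell (29% and 0%), against 5.9% and 7.94% of all genes. At an unadjusted p under 0.05 in limma, 1 member was lower (3.23%, against 24.7% of all genes). COL4A4 changed most, from 37, 18 and 22 CP20M with DMSO to 202, 146 and 355 with palbociclib (log2FC 2.72 ± 0.32). COL3A1 was at 3906, 2101 and 1727 with DMSO and at 9794, 10410 and 15530 with palbociclib (2.26 ± 0.38). COL8A1, the alpha 1 chain of type VIII collagen, was at 5152, 6834 and 7025 against 15301, 16447 and 15177 (1.31 ± 0.13). All 3 sets were separate. COL5A1 (1.95 ± 0.31), COL5A3 (1.94 ± 0.10), COL5A2 (1.34 ± 0.25), COL6A3 (1.13 ± 0.20), COL6A1 (0.93 ± 0.12) and COL6A2 (0.83 ± 0.10) also rose. COL5A3 was at most 9 CP20M with DMSO and 63 with palbociclib here, and COL6A3 at most 13 and 37. Both were tested only because other lines reached 100 CP20M, and their fold changes depend on the added constant. The adjusted p of the 9 genes lay between 0.0349 and 0.0445 in limma.

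In H28, 1 member rose and 5 fell (3.23% and 16.1%), against 5.89% and 7.34% of all genes. COL1A1 (log2FC −2.68 ± 0.46), COL5A1 (−2.26 ± 0.13), COL14A1 (−1.79 ± 0.16), COL7A1 (−1.03 ± 0.20) and COL4A4 (−0.82 ± 0.12) fell. The FACIT COL14A1, at 281, 89 and 327 CP20M with DMSO, was at 59, 22 and 97 with palbociclib, and it was at most 8 in the other sensitive lines. COL4A4, which rose in H2052 and MSTO-211H, was at 336, 453 and 506 against 210, 212 and 297 here. COL8A1 rose (1.07 ± 0.11) at a low level, from 3, 4 and 23 to 22, 18 and 52. In H2452, 2 members rose and 4 fell (6.45% and 12.9%), against 6.04% and 10.8% of all genes. COL6A1 (0.70 ± 0.10) and COL6A2 (0.60 ± 0.06) rose, and COL4A6 (−1.67 ± 0.37), COL7A1 (−1.45 ± 0.07), COL1A2 (−1.17 ± 0.26) and COL3A1 (−1.14 ± 0.24) fell. COL1A2, at 4635, 20006 and 3000 with DMSO, was at 1292, 12913 and 1436 with palbociclib, lower in each pair although the sets overlapped. Under median-of-ratios scaling, 3 members rose and 2 fell in H2452, against 10.4% and 6.53% of all genes. COL8A1, at 5976, 2942 and 11329 against 1851, 4231 and 4285, did not pass. Adjusted p lay between 0.0266 and 0.0431 in H28 and between 0.0123 and 0.0404 in H2452, in limma. With 1 pair left out, 0 members of H28 or MSTO-211H and 0 to 3 of H2452 passed, and in all but 1 of these fits 0 of all genes did.

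In the resistant lines, 0 of 31 members were called over the 3 pairs in limma, as were 0% of all genes in either direction. At an unadjusted p under 0.05 in limma, 4 members passed (12.9%, against 7.07% of all genes). All 4 were lower, against 2.45% of all genes lower and 4.62% higher. These members were COL25A1 (log2FC −0.35), COL6A3 (−0.26), COL8A1 (−0.26) and COL4A1 (−0.14), with an adjusted p of 0.689 each. In MPP89, COL6A1 was at 12729 and 9683 CP20M with DMSO and at 12009 and 9290 with palbociclib, COL7A1 at 18363 and 13868 against 19488 and 15968, and COL1A1 at 88853 and 70498 against 72998 and 70091. In MeT-5A these genes were at 5908, 908 and 6318 with DMSO and at 6022, 889 and 6819 with palbociclib. The values of COL6A1, COL7A1 and COL1A1 overlapped between DMSO and palbociclib in MPP89. The difference of the response between sensitive and resistant lines passed for 1 member in each direction (3.23% each, against 1.13% upward and 5.62% downward of all genes). It was 0.83 ± 0.21 for COL6A1 (adjusted p = 0.0234 in limma) and −1.23 ± 0.35 for COL7A1 (adjusted p = 0.0388). The units of this fit were pairs, 11 from the 4 sensitive lines and 3 from MPP89 and MeT-5A. Its p-values therefore do not measure the spread between lines, and no fit of line means was made for it. The call of COL7A1 was lost under both other scalings, and without the first H2052 pair, any H2452 pair, or H28 pair 1 or 3. With any 1 of the 3 resistant pairs left out, 0 members passed.

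The washout comparison asked whether collagen genes returned towards control 48 h after removal of the drug, with 1 experiment in each of 4 sensitive lines. Both washout comparisons share their libraries with each other and with the comparisons above. Against palbociclib, 0 of 31 members were called in limma, while 1.4% of all genes were higher and 0% lower. At an unadjusted p under 0.05, 4 members passed (12.9%, against 13% of all genes), COL7A1 (log2FC 0.83 ± 0.21, adjusted p = 0.0993), COL17A1 (0.72 ± 0.22), COL6A1 (−0.40 ± 0.10) and COL6A2 (−0.33 ± 0.13), each in the same direction in 4 of 4 lines. COL7A1 was at 132, 21 and 78 CP20M in the DMSO, palbociclib and washout libraries of H2052, at 2635, 989 and 1746 in H2452, at 52276, 21355 and 28867 in H28, and at 183, 112 and 172 in MSTO-211H. The washout value lay between the other two in each line. COL6A1 was at 10903, 25149 and 18530 in H2052, at 4314, 8272 and 6035 in H2452, at 4475, 7358 and 5721 in H28, and at 7505, 16374 and 13085 in MSTO-211H, and again the washout value was intermediate.

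Against DMSO, 1 member was higher and 1 lower after washout (3.23% each, against 2.81% and 2.95% of all genes). COL6A1 was still above control in 4 of 4 lines, with a log2FC of 0.60 ± 0.10 (adjusted p = 0.0093 in limma). COL8A2 was below in 4 of 4 lines, with −0.85 ± 0.24 (adjusted p = 0.0473), at 436, 152 and 150 CP20M in H2052 and at 261, 96 and 126 in H2452. In H28 it was at only 22, 4 and 14 and in MSTO-211H at 13, 10 and 6, values that rest on few reads. Without the H2052 or the MSTO-211H experiment, 0 members passed, and without that of H2452 or H28 only 1, an increase. For other members, the values after washout are given for single lines, chosen after their values were seen. COL3A1 in MSTO-211H was at 1727 with DMSO, 15530 with palbociclib and 13022 after washout. COL4A4 was at 22, 355 and 471 there. COL5A1 was at 2121, 469 and 474 in H28. These washout values lay close to palbociclib. In H2452, COL1A2 was at 3000 with DMSO, 1436 with palbociclib and 2725 after washout, COL3A1 at 92, 39 and 107, and COL4A6 at 97, 31 and 79. COL8A1 was at 1429, 2901 and 1679 in H2052. These lay closer to DMSO, and COL5A1 in H2052, at 6719, 19332 and 12097, lay in between. These are single experiments without a test.

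**Figure D5:**
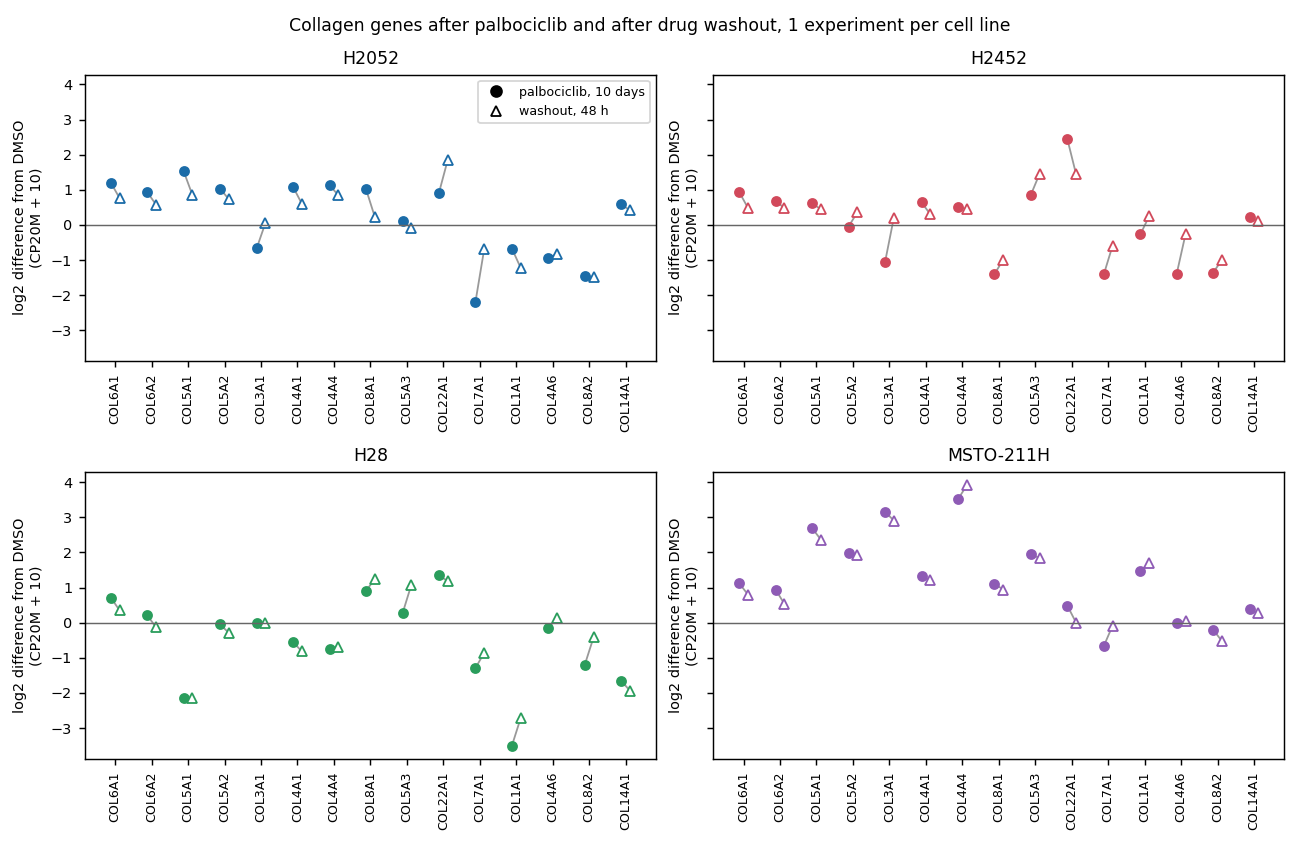
Difference from DMSO on the log2(CP20M + 10) scale (vertical axis) of 15 collagen genes (horizontal axis) after 10 days of palbociclib (circles) and after 48 h of washout (triangles), in 1 experiment of each sensitive line. COL6A1 and COL7A1 move towards 0 in each line, while COL5A1 in H28 (−2.15 and −2.14) and COL4A4 in MSTO-211H (3.51 and 3.91) stay far from it.

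Collagen chains are hydroxylated, glycosylated and folded in the endoplasmic reticulum, trimmed outside the cell and cross-linked. Of 13 genes of prolyl and lysyl hydroxylation tested over the 11 pairs, 3 rose and 0 fell, with 5.58% and 9.37% of all genes as background. They were P4HA1 (log2FC 0.76 ± 0.14) and P4HA2 (0.95 ± 0.16), catalytic subunits of prolyl 4-hydroxylase, and the lysyl hydroxylase PLOD1 (0.69 ± 0.15). Of 6 genes of glycosylation, folding and export, 3 rose and 0 fell, namely the galactosyltransferase COLGALT2 (0.92 ± 0.24) and the prolyl isomerases FKBP10 (0.70 ± 0.10) and FKBP14 (0.88 ± 0.14). Of 8 genes of propeptide processing, 3 rose, ADAMTS14 (1.31 ± 0.19), TLL2 (0.61 ± 0.21) and PCOLCE2 (0.70 ± 0.19), and 1 fell, PCOLCE (−0.60 ± 0.17). Of 5 cross-linking enzymes, LOX rose (1.47 ± 0.40, adjusted p = 0.00787 in limma). Of 6 collagen receptors, the integrin gene ITGA11 fell (−0.68 ± 0.15). Of 5 fibril-binding proteoglycans, 3 rose, DCN (0.96 ± 0.24), LUM (0.99 ± 0.27) and FMOD (1.22 ± 0.32), and the first 2 are also among the fibroblast markers above. Control means of these 3 genes were at most 1.33 CP20M in H2452 and H28 and at most 66 in H2052 and MSTO-211H, so that their fold changes depend on the added constant. The same holds for COLGALT2, with control means from 9 to 66 in the sensitive lines, and TLL2, with 4.33 to 69. PCOLCE2 was at most 21 in the sensitive lines other than H2052. The response of 10 of the 15 called genes differed among the sensitive lines in the F test of limma, with 37.1% of all genes as background, and LOX (adjusted p = 5.89e-04) and PLOD1 (adjusted p = 6.75e-04) had the lowest values. P4HA2, FKBP10, FKBP14 and ADAMTS14 were higher in 11 of 11 pairs, but PLOD1 and DCN in only 8.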

How the data were processed

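RNA-seq libraries of 6 established cell lines were analysed. The authors trimmed reads with Trimmomatic 0.36, mapped them to GRCh38 with STAR 2.5.3, counted them per gene with HTSeq 0.9.1 and the Ensembl 90 annotation, and scaled each library to 20000000 reads. The library kit was directional, and the strand setting of the counting is not given in the sources used here. The deposited values are a score, CP20M, rounded up to whole numbers, and not raw counts. Column totals lay between 20007662 and 20021400 and do not show depth. The authors' comparisons used DESeq2, which was not used here.

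The log2(CP20M + 10) scale, which understates changes of low genes, was fitted with limma 3.58.1 (trended moderation) in R 4.3.3. A gene was tested if any of the 33 libraries reached 100 CP20M (17803 genes), with p-values adjusted (Benjamini-Hochberg) over all of them. A call needed an adjusted p under 0.05 and a fold change above 1.5 (F tests: adjusted p only). DMSO and palbociclib libraries were paired by experiment, as the study's methods state, and the experiment was a block. Deviations of paired libraries correlated over genes at r between 0.18 and 0.78 (genes do not replicate each other). Replicates were separate experiments. At most 4.33% of tested genes had the same value in replicate libraries. The fitting functions were checked on simulated data with large changes and a fixed spread, smaller than that of some collagen genes here. This does not measure how many real changes the fits find.

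Members were named with values when they averaged 100 CP20M in the controls of a line or were called. Those called over the 11 pairs and the most changed of each class were given values per library in all or some of the sensitive lines. Pathway genes were named where called. Members and lists were chosen with earlier results of these data known. Alternatives were other pseudocounts (1 or 50), the low-value filter dropped or applied to the fitted libraries, and scaling by median of ratios or upper quartile. Others were no trend, no replicate block and leaving out each pair. Line means and, chosen after seeing the data, pairs of 9 or 10 days alone were used only for the 11 sensitive pairs. Exon lengths came from GENCODE 44, another release than the authors'. Protein sequences were not analysed here. Tables and figures were made with Python 3.11.15, pandas and matplotlib.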

Additional observations from a re-analysis of the deposited data

Results flagged for a closer look

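COL6A1 and COL7A1 responded differently in the pairs of sensitive and resistant lines, with a difference in log2FC of 0.83 (adjusted p = 0.0234 in limma) and −1.23 (adjusted p = 0.0388). Pairs were the units, so that these p-values do not measure the spread between lines. With any 1 of the 3 resistant pairs left out, 0 members passed. Under either other scaling, and without H2052 pair 1, any 1 H2452 pair, or H28 pair 1 or 3, 1 member passed. The same held with a pseudocount of 1, and 0 members passed without the low-value filter or without the replicate block.

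The response of 14 collagen genes differed among the 4 sensitive lines by the F test of limma over 11 pairs. The F statistic was 62.9 for COL5A1 (adjusted p = 9.68e-05) and 45.4 for COL14A1 (adjusted p = 2.05e-04). It was 25.9 for COL3A1, 25.1 for COL4A4, 14.2 for COL6A2 and 11.7 for COL5A2. It was 10.3 for COL5A3, 10.1 for COL9A2, 9.83 for COL8A1 and 9.75 for COL4A1. The lowest were 7.92 for COL4A6, 7.84 for COL1A2, 7.64 for COL4A2 and 5.75 for COL6A3 (adjusted p = 0.0375). COL14A1 was at 89 to 327 CP20M with DMSO in H28, but at most 8 in any DMSO or palbociclib library of the other sensitive lines. COL9A2 was at 102 and 137 CP20M with DMSO and at 40 and 12 with palbociclib in H2052, and at or below 6 in the other sensitive lines. COL1A2, COL3A1, COL4A6, COL5A3 and COL6A3 were also almost absent from the controls of some sensitive lines. In such a line, a different response cannot be told apart from low expression.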

How the results depend on the processing

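Of 161 alternative counts of called collagen genes, 116 lay within 1.5 times the reported count, 43 were lower and 2 higher. The 116 include counts with little room to change, and so overstate stability. In the resistant lines, for example, 0 of all genes were called in the main fit and under both other scalings. For control levels among the lines, 96.3% of all genes were called in the main fit. COL6A1 and COL7A1 kept their call over the 11 pairs in 21 of 22 alternatives, COL5A3 in 18, COL22A1 and COL8A2 in 17, COL4A6 in 16 and COL1A1 in 9. COL5A2 passed in 8 and COL6A2 in 7. In 23 libraries the estimated depth was under 20000000 reads, so that 1 read was worth more than 1 CP20M and values of a few CP20M rest on few reads. Over the 11 pairs, 7 calls became 2 with a pseudocount of 50, 0 without the replicate block, 3 with line means and 4 with the pairs of 9 days. Without the block, 939 of all genes were called. The cause was not tested.

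In H2052, 10 calls became 0 without the filter, 16 with the filter within the fit and 0 without trend. Leaving out an H2052 pair left no residual degrees of freedom. In H2452, 6 became 0 without the filter, 10 with the filter within the fit, 3 without the replicate block and 0 to 3 with a pair left out. In H28, 6 became 0 without the filter, 1 without the replicate block and 0 to 0 with a pair left out. In MSTO-211H, 9 became 0 without the filter and 0 to 0 with a pair left out. Without the filter, limma called 0 to 6 of all genes in these lines. For the difference between sensitive and resistant lines, 2 became 1 with a pseudocount of 1, 0 without the filter, 1 under either scaling, 0 without the replicate block and 0 to 3 with a pair left out. Among the sensitive lines, 14 became 7 without the replicate block. For washout against DMSO, 2 became 1 with a pseudocount of 50, without the filter or with median-of-ratios scaling, 0 without the replicate block and 0 to 1 with a line left out.

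The log2FC over the 11 pairs changed sign for 8 members that were not called. With a pseudocount of 1, COL14A1 was 0.38 and COL15A1 0.030. With a pseudocount of 50, COL16A1 was −0.019. With median-of-ratios scaling COL27A1 was 0.090 and COL15A1 0.026, and with upper-quartile scaling 0.066 and 0.028. With line means COL16A1 was −0.030 and COL25A1 −0.010. With the pairs of 9 days COL16A1 was −0.14, COL5A1 −0.084 and COL6A3 0.040, and with those of 10 days COL25A1 was −0.11 and COL27A1 0.0073. With a pair left out, COL15A1 ranged from −0.055 to 0.031, COL16A1 from −0.063 to 0.155, COL25A1 from −0.018 to 0.052, COL3A1 from −0.069 to 0.418, COL5A1 from −0.060 to 0.465 and COL6A3 from −0.382 to 0.068.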
